A study of Mus musculus with 35 samples.

Results

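The cGAS-STING chain is described here through 10 genes, taken by symbol from the deposited count table with earlier results of these data known. They are Mb21d1 (the table's name for cGAS), Tmem173 (its name for STING), Tbk1, Ikbke, Irf3, Mavs, Ifnar1, Ifnar2, Jak1 and Tyk2. All 10 were found among the 19085 gene entries of that table. The study measured RNA in 35 single mouse embryonic fibroblasts, which are connective tissue cells grown in culture, taken from the C57Bl/6J strain and kept in 3% oxygen. Every cell had received 1 Gy of ionising radiation, was moved to a membrane dish 32 h later, and was cut out by laser 48 h after the dose with its DNA stained by PicoGreen. Of the cells 21 held micronuclei, small chromatin bodies separate from the main nucleus. The other 14 had none, and no unirradiated cell serves as a control here. Smart-seq2, a full-length method for polyadenylated RNA whose reads carry no molecular identifiers, gave 57514 to 1794113 reads on genes per micronucleated cell and 56766 to 2023111 per cell without micronuclei. Each library is 1 cell and the labels name no culture, embryo or animal. Each group therefore counts as 1 sample: differences carry no p-value and were not checked by replication. The 95% intervals below cover counting error only. Those on shares treat cells as independent draws, and those on CPM treat reads as independent. Without molecular identifiers, copies of the same molecule are not told apart, so the intervals on CPM may be too narrow. Cells are numbered within their group by record order, which has no further meaning.

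cGAS is an enzyme that binds double-stranded DNA in the cytosol and makes the small messenger cGAMP, which activates the membrane adaptor STING. STING recruits the kinases TBK1 and IKKε (encoded by Ikbke), which phosphorylate the transcription factor IRF3 so that it can switch on type I interferon genes. Secreted interferon is bound by a receptor of the chains IFNAR1 and IFNAR2, which carry the kinases TYK2 and JAK1, and the signal induces interferon-stimulated genes. MAVS is the mitochondrial adaptor of the parallel arm that starts from viral-type RNA and meets the DNA arm at TBK1. Chromatin in a micronucleus whose envelope has broken is a known ligand of cGAS. A cell is said below to hold a gene when at least 5 of its reads fell on that gene. In cells captured singly, a transcript with no read may still be present, and RNA says nothing of the protein.

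Fibroblast transcripts were found in all cells. The summed level of 10 fibroblast markers ranged from 4189.5 to 22976.9 CPM with micronuclei and from 6696.5 to 21610.8 CPM without. CPM is a cell's reads on a gene scaled to a common total of reads on genes. Micronucleated cell 6 had the lowest of these sums and held 3 of the 10 markers, against a median of 8 in each group. Macrophage markers were at 0 summed CPM in the median cell of both groups. The summed macrophage level ran from 0 to 17148.6 CPM with micronuclei and from 0 to 4.48 CPM without. Micronucleated cell 10 stood apart. It held 12 of 14 macrophage markers, among them Lyz2 at 13945.8 CPM, C1qb at 546.1 CPM and Adgre1 at 63.8 CPM. Its fibroblast genes were at usual levels, with Col1a1 at 2542.3 CPM against a median of 1995.7 CPM in the other cells. No other cell held more than 2 macrophage markers, and the defining markers C1qa and Ptprc had no read outside cell 10. Endothelial markers summed to at most 327.0 CPM. No listed lymphoid marker was in the table used, so lymphoid transcripts were not checked. Without cell 10, Tbk1 was held by 6 of the other 20 micronucleated cells, Irf3 by 11, Ifnar2 by 8 and Jak1 by 13. Values without it stand beside the results below that it touches most, while the part of its macrophage transcripts in them was not tested.

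Upstream sequence was matched in RefSeq (build GRCm38.p6) for 9 of the 10 genes. The 250 bases before the start are shown for the first and the last step of the chain: the sensor gene Mb21d1, held by 4 cells, and Jak1, held by 26, more than any other member. Capitals mark GC boxes (GGGCGG or CCGCCC) and CCAAT boxes (CCAAT or ATTGG) on either strand. Both windows are on the minus strand, at chr9:78443238-78443487 and chr4:101265224-101265473, and are written 5′ to 3′.
Mb21d1: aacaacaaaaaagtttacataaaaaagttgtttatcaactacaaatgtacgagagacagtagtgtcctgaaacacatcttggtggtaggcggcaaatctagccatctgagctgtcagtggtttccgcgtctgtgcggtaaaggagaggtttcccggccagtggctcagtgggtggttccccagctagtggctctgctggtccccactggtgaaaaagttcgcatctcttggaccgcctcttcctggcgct
Jak1: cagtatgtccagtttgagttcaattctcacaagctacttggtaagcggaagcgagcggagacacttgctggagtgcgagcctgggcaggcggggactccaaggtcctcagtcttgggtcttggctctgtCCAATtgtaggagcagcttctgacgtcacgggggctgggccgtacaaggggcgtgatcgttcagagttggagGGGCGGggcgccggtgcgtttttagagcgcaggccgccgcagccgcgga
The Jak1 window held 1 GC box and 1 CCAAT box and was 61.2% G or C. The Mb21d1 window held neither and was 50% G or C, against a median of 52% over 27025 genes. The Jak1 window ends at the RefSeq start. GENCODE places the Jak1 start at 101265282, inside that window, so the marked GC box lies within the GENCODE gene. A GC box was found in 32.9% of all such windows and a CCAAT box in 34.5%. GC boxes also stood before Tbk1, Irf3, Mavs, Ifnar1 and Tyk2, the last of which 3 cells held. The core of the interferon response element, GAAA repeated after any 2 bases on either strand, present in 3.04% of all windows, was found in none of the 9 windows. The interferon-γ activated core (TTCNNNGAA), present in 7.18%, occurred once, before Ifnar2. These are letter matches and not evidence of binding.

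Reads of the sensor were rare, and most fell in cells without micronuclei. Mb21d1 lies on chromosome 9 (78430526 to 78443237, GRCm38, as Cgas in GENCODE). Among micronucleated cells its level ran from 0 to 52.2 CPM with a median of 0, and 2 of 21 cells had any read: cell 10 with 13 reads and cell 19 with 3. Among the 14 other cells it ran from 0 to 153.2 CPM with a median of 0, and 3 cells had reads: cell 7 with 310, cell 4 with 54 and cell 3 with 6. The groups overlapped, since most cells of both were at 0. The gene was held by 1 of 21 micronucleated cells, or 4.76% (0.12 to 23.8%), and by 3 of 14 others, or 21.4% (4.66 to 50.8%). These Clopper-Pearson intervals overlap. The single micronucleated cell that held the sensor was cell 10, the cell with macrophage markers. Without it, 0 of the remaining micronucleated cells held Mb21d1. In summed reads the sensor stood at 1.44 CPM (exact Poisson interval 0.825 to 2.34) against 31.9 CPM (28.7 to 35.3). The log2 ratio, with 1 CPM added to both, was −3.75. It was −1.57 without cell 7 of the group without micronuclei, which held 80.3% of all Mb21d1 reads, but −4.67 when micronucleated cell 10 was dropped. It stayed below 0 in all 35 leave-outs and all 9 other settings, but was −0.68 as a mean of log2 CPM.

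STING transcripts were spread over more cells. Tmem173 ran from 0 to 122.1 CPM (median 7.48) in micronucleated cells and from 0 to 109.4 CPM (median 0) in the others. At least 1 read was found in 12 of 21 against 3 of 14 cells. The share that held the gene was almost equal, 5 of 21 (23.8%, 8.22 to 47.2%) against 3 of 14 (21.4%, 4.66 to 50.8%). Without micronucleated cell 10, 4 of 20 held it (20%, 5.73 to 43.7%). The difference in cells with a read thus lay in 7 micronucleated cells with 1 to 4 reads each. It remained at equal depth: after each cell was thinned to 100000 reads, 9 of 18 micronucleated cells (50%) and 3 of 13 others (23.1%) had a read. The summed level was 30.2 CPM (27.1 to 33.6) against 18.2 CPM (15.8 to 20.8), a log2 ratio of 0.70. That ratio was −0.15 without micronucleated cell 14 (179 reads). Dropping cell 4 without micronuclei (166 reads) gave 2.52, so its sign rested on single cells. The sensor and the adaptor were held together in 2 of the 35 cells, micronucleated cell 10 and cell 4 without micronuclei. Cell 7 without micronuclei, with the most Mb21d1 reads, had no read of Tmem173.

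**Figure D1:**
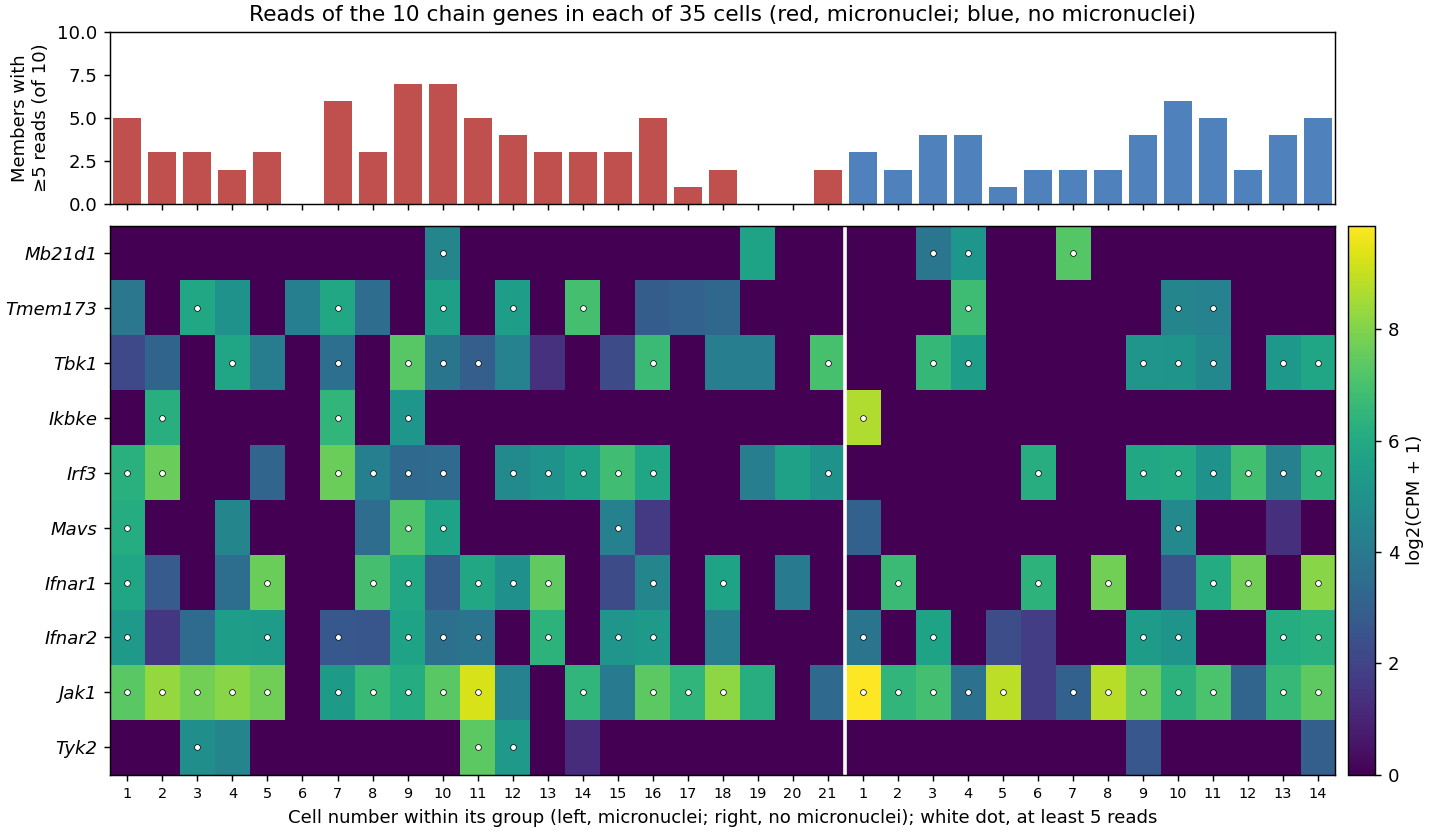
Heat map of log2(CPM + 1) of the 10 chain genes (rows) in 35 single cells (columns, 21 with micronuclei left of the white line, 14 without right of it), with the number of genes held by each cell as bars on top. White dots mark at least 5 reads. Jak1 is held by 26 cells, Mb21d1 and Ikbke by 4 each and Tyk2 by 3, and micronucleated cells 9 and 10 hold the most members, 7 each.

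Of the 2 kinases that act on IRF3, Tbk1 was held by 14 cells and Ikbke by 4. Tbk1 (chromosome 10, 121546455 to 121586787), the kinase that STING recruits, ran from 0 to 158.3 CPM (median 8.03) with micronuclei and from 0 to 94.1 CPM (median 11.8) without. It was held by 7 of 21 (33.3%, 14.6 to 57.0%) and 7 of 14 cells (50%, 23 to 77%). Any read was present in 15 and 7 cells. The groups overlapped widely, and the log2 ratio of summed reads was 0.53, −0.27 without micronucleated cell 9 and −0.14 at equal depth. Ikbke lies on chromosome 1 (131254343 to 131279606), and its product is a close relative of TBK1. Its 419 reads fell in 4 cells: 127 in micronucleated cell 7, 36 in cell 2, 34 in cell 9, and 222 in cell 1 without micronuclei. In that last cell, 1 of 6 with under 4000 genes detected or over 9% mitochondrial reads, it reached 411.5 CPM, against at most 87.8 CPM in a micronucleated cell. Its log2 ratio of −0.10 became 4.23 without that cell and −1.28 without micronucleated cell 7. Cells 7 and 9 with micronuclei held both kinases. At least 1 of the 2 was held by 8 of 21 micronucleated cells (38.1%) and 8 of 14 others (57.1%).

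Irf3, the factor at the end of the DNA arm, was among the members with a higher summed level in micronucleated cells. It lies on chromosome 7 (44997648 to 45002848) and shares 88 exonic bases, 2.56% of its exonic length, with Bcl2l12 on the opposite strand. It ran from 0 to 199.9 CPM (median 18.3) in micronucleated cells and from 0 to 116.9 CPM (median 9.26) in the others. The ranges overlapped, with 6 micronucleated cells and 7 others at 0. Holding cells numbered 12 of 21 (57.1%, 34 to 78.2%) and 7 of 14 (50%, 23 to 77%). Summed levels were 57.5 CPM (53.1 to 62.1) against 20.8 CPM (18.2 to 23.5), a log2 ratio of 1.43. The ratio was 0.77 without micronucleated cell 7, 0.41 when every cell had equal weight and 0.27 at equal depth. Its sign was positive in all 35 leave-outs and all 9 other settings.

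Mavs, the adaptor of RNA sensing (chromosome 2, 131234063 to 131248025), was sparse in both groups. It ran from 0 to 141.6 CPM with micronuclei and from 0 to 23.7 CPM without, with a median of 0 in both. Reads were present in 7 of 21 and 3 of 14 cells, and 4 and 1 cells held the gene. Micronucleated cell 9 had 135 of the 223 reads. Summed levels were 17.9 CPM (15.5 to 20.5) against 2.15 CPM (1.39 to 3.18), a log2 ratio of 2.58, which fell to 1.20 without that cell and came to 3.69 when cell 10 without micronuclei was dropped. Without micronucleated cell 10 the ratio was 2.42, and 3 of 20 cells held the gene. The adaptor was held with a kinase and Irf3 in micronucleated cells 9 and 10, hence in 1 without the cell that carried macrophage markers, and in cell 10 without micronuclei.

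**Figure D2:**
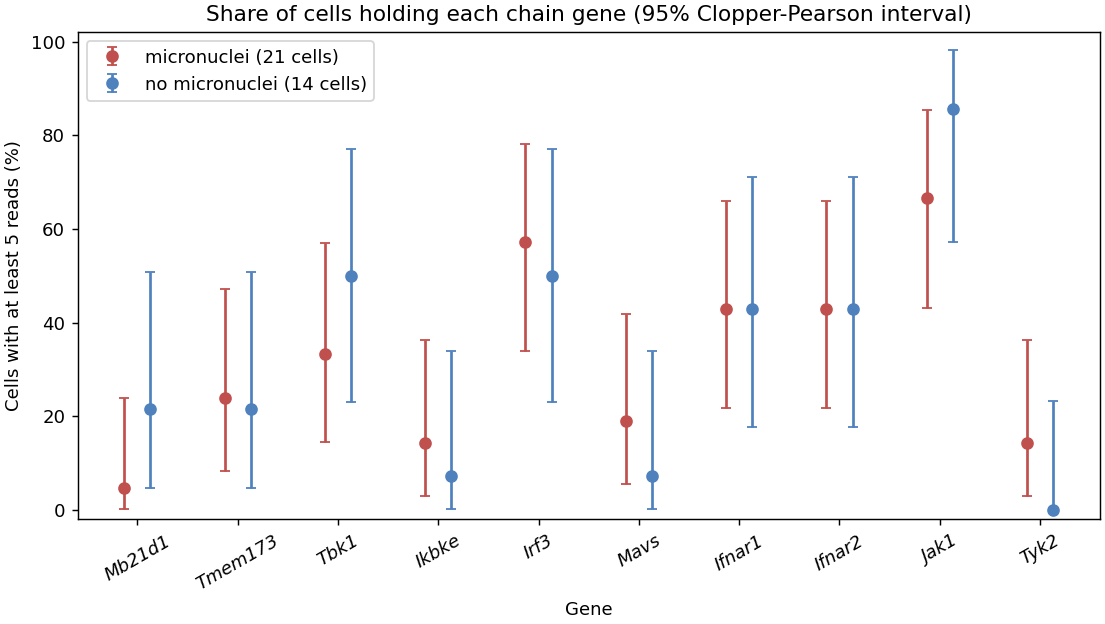
Share of cells with at least 5 reads of each chain gene (vertical axis, percent) in 21 cells with micronuclei (red) and 14 without (blue), with 95% Clopper-Pearson intervals as bars. The intervals of the groups overlap for each of the 10 genes, and Ifnar1 and Ifnar2 are each at 42.9% in both groups.

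Each receptor chain was held by the same share of both groups, while the counts of cells with both chains were 6 of 21 and 1 of 14. Ifnar1 (chromosome 16, 91485238 to 91507441) ran from 0 to 201.1 CPM (median 10.8) with micronuclei and from 0 to 273.6 CPM (median 2.37) without. Ifnar2, its neighbour on the chromosome (91372783 to 91405589), ran from 0 to 81.9 CPM (median 9.82) and from 0 to 75.3 CPM (median 3.23). It shares 315 exonic bases (9.46%) with the gene model Gm21970 on the same strand. Each chain was held by 9 of 21 (42.9%, 21.8 to 66.0%) and 6 of 14 cells (42.9%, 17.7 to 71.1%). Both chains were held by 6 of 21 micronucleated cells (28.6%, 11.3 to 52.2%) and by 1 of 14 others (7.14%, 0.181 to 33.9%). At least 1 read of each was found in 12 of 21 (57.1%) and 3 of 14 cells (21.4%). At equal depth these were 8 of 18 (44.4%, 21.5 to 69.2%) and 2 of 13 (15.4%, 1.92 to 45.4%). The intervals overlap in each of the 3 counts. Neither chain was held by 9 micronucleated cells and 3 others.

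Summed levels of the receptor genes gave no stable direction. Ifnar1 stood at 50.0 CPM (45.9 to 54.3) against 48.4 CPM (44.5 to 52.6), a log2 ratio of 0.05. It was −0.87 without micronucleated cell 13, 0.96 when cell 8 without micronuclei was dropped, and −0.79 with equal weight for every cell. Ifnar2 stood at 25.3 CPM (22.4 to 28.4) against 12.3 CPM (10.4 to 14.5), a log2 ratio of 0.98. That was 0.20 without micronucleated cell 13, which had 34.8% of the reads, and −0.13 with equal weight. Micronucleated cell 13 had the most reads of both chains, 313 and 147, and no read of either receptor kinase.

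Of the kinases bound to the receptor, Jak1 was the most widely held gene of the chain and Tyk2 the least. Jak1 (chromosome 4, 101152367 to 101265282) ran from 0 to 615.6 CPM (median 89.8) in micronucleated cells and from 2.42 to 926.8 CPM (median 108.3) in the others. Only micronucleated cells 6, 13 and 20 had no read. It was held by 14 of 21 (66.7%, 43.0 to 85.4%) and 12 of 14 cells (85.7%, 57.2 to 98.2%). The log2 ratio of summed reads, 139.5 CPM (132.6 to 146.6) against 182.9 CPM (175.2 to 190.9), was −0.39. It lay between −1.11 and −0.07 over the leave-outs, its ends reached by dropping micronucleated cell 11 and cell 1 without micronuclei. It was 0.33 without the same 6 cells of few genes or many mitochondrial reads, which include cells 1 and 5 without micronuclei, so the lower level was not independent of which cells were kept. Tyk2 (chromosome 9, 21104068 to 21131243) shares 554 exonic bases (8.07%) with an antisense gene and was held by 3 of 21 micronucleated cells and 0 of 14 others. By a limit of 3 cells of the total a count of 0 allows a share of up to 21.4%, and the Clopper-Pearson upper bound is 23.2%. Of its 212 reads 190 fell in micronucleated cell 11. The summed level was 18.8 CPM (16.3 to 21.5) against 0.344 CPM (0.0939 to 0.882), a log2 ratio of 3.88 that was 1.06 without that cell. Both receptor kinases were held by micronucleated cells 3 and 11 alone, and both chains with both kinases by cell 11 alone.

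**Figure D3:**
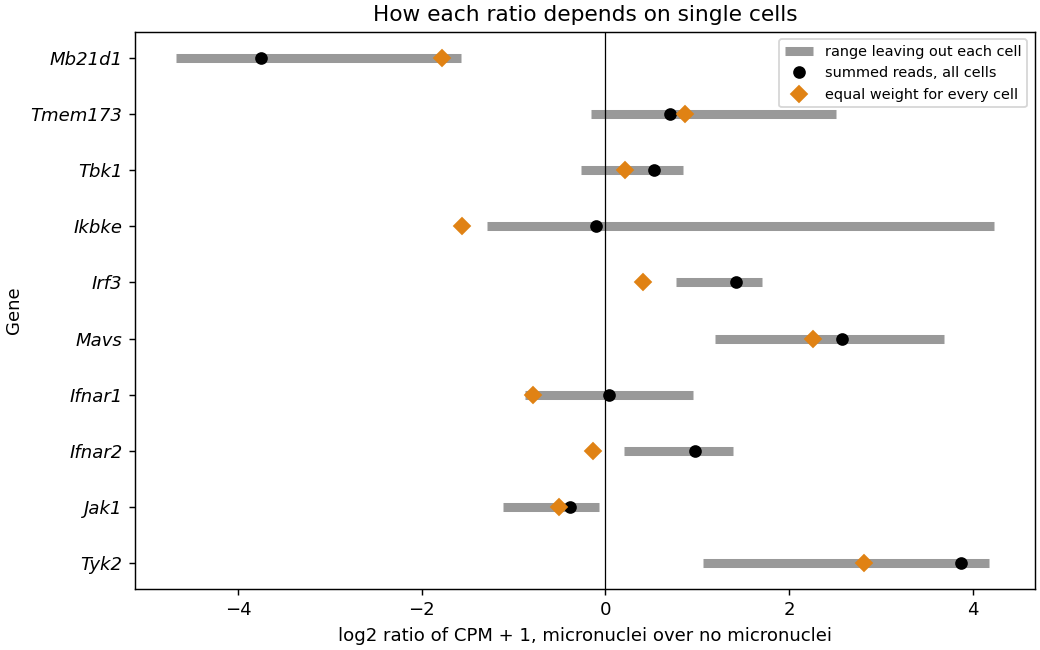
Log2 ratio of CPM + 1 in cells with micronuclei over cells without (horizontal axis) for each chain gene, from summed reads (black), with equal weight for every cell (orange) and as the range when each of 35 cells is left out in turn (grey). The range crosses 0 for Tmem173, Tbk1, Ikbke and Ifnar1, and the equal-weight value of Ifnar2 lies below 0.

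Few cells held the chain from end to end. Its members were grouped into 6 steps: sensor (Mb21d1), adaptor (Tmem173), kinase (Tbk1 or Ikbke), factor (Irf3), receptor (Ifnar1 or Ifnar2) and receptor kinase (Jak1 or Tyk2). All 6 steps were held by 1 of 35 cells, micronucleated cell 10, which carried the macrophage transcripts. That cell was also the single one with at least 1 read of every step. In it the reads were 13 of Mb21d1, 29 of Tmem173, 8 of Tbk1, 6 of Irf3, 32 of Mavs, 7 of Ifnar2 and 97 of Jak1. Without that cell no cell of either group held sensor, adaptor, kinase and factor together. Adaptor, kinase and factor were held by 2 of 21 micronucleated cells, 7 and 10 (9.52%, 1.17 to 30.4%), and by 2 of 14 others, 10 and 11 (14.3%, 1.78 to 42.8%). Without micronucleated cell 10 the former count was 1 of 20, or 5%. Those 4 cells were also the cells with 5 or 6 steps. With 1 read as the minimum the same combination was present in 5 of 21 and 2 of 14 cells. At least 4 steps were held by 5 of 21 (23.8%, 8.22 to 47.2%) and 7 of 14 cells (50%, 23 to 77%), against 13 and 7 cells by 1 read. The order of the groups thus turned with the read minimum.

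Per cell, the number of members held had a median of 3 (SD 2.09, range 0 to 7) with micronuclei and 3.5 (SD 1.49, range 1 to 6) without. The number of steps had a median of 2 (SD 1.57, range 0 to 6) and 3.5 (SD 1.29, range 1 to 5). The difference of members was below the SD of either group; the difference of steps was above the SD without micronuclei and below the SD with them. Cells with micronuclei were less deeply read, with a median of 281800 reads against 736715, and their median of genes detected was 6812 against 6082. With 1 read as the minimum, the medians at full depth were 5 and 4 members, and 4 and 3.5 steps. At equal depth the medians of members with a read were 4.5 (SD 1.74) and 4 (SD 1.61). Those of steps with a read were 3.5 (SD 1.41) and 3 (SD 1.07). The median of members held at equal depth was 2 in each group. No member was held by micronucleated cells 6, 19 and 20, whereas every cell of the other group held at least 1. Across the 35 cells, which share a protocol and differ in depth, the number of members held followed the number of genes detected (Spearman rho 0.66) more than the reads (0.38). At equal depth the number of members with a read had a rho of 0.67 with genes detected over 31 cells. The part of genes detected in the group differences was not tested.

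**Figure D4:**
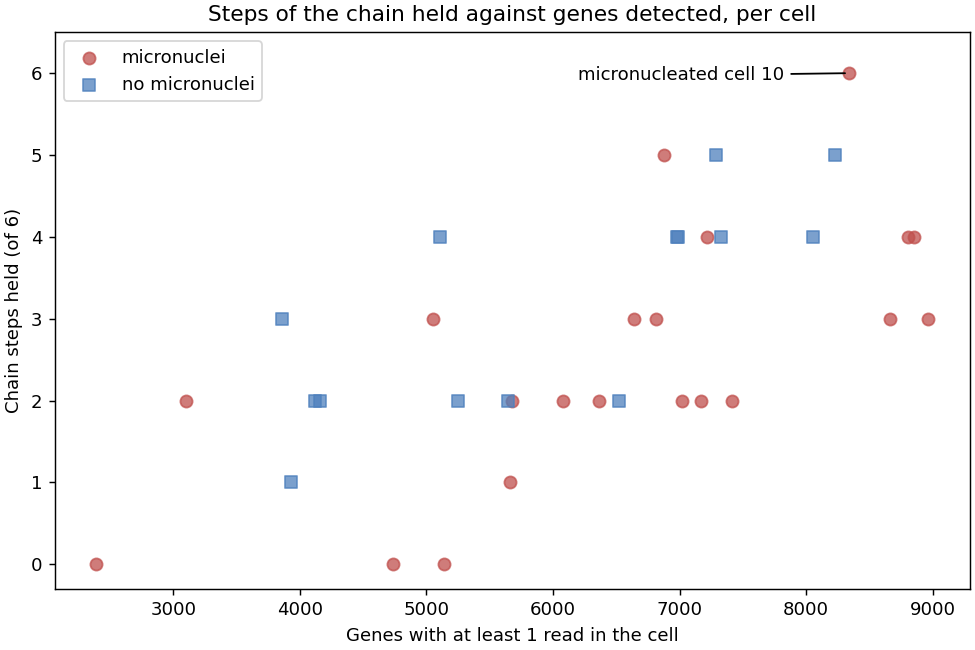
Number of chain steps held (vertical axis, 0 to 6) against genes with at least 1 read (horizontal axis) in each of 35 cells, 21 with micronuclei (red circles) and 14 without (blue squares). Cells with more genes detected tend to hold more steps, but micronucleated cell 1, with the most genes (8964), holds 3. Micronucleated cell 10 is the single cell with 6.

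Set on a common length scale, Jak1 led the chain. Exonic length here counted every base in any GENCODE exon of the gene, so it can exceed that of a single transcript. Summed over all cells and divided by this length, Jak1 had a level of 22.4 CPM per kb, Irf3 11.2 and Tmem173 8.78. Ifnar1 followed at 8.28 CPM per kb, Tbk1 at 5.99 and Ifnar2 at 5.60. The sensor stood at 4.12 CPM per kb, Mavs at 2.94, Ikbke at 2.05 and Tyk2 at 1.36. Between single cells the SD of the level exceeded its mean for each of the 10 genes, as for Jak1 (mean 22.3, SD 27.3 CPM per kb) and Mb21d1 (mean 1.91, SD 6.69). Neighbours in this order therefore did not differ beyond the spread between cells. In summed reads the order differed between the groups. In micronucleated cells Jak1 (19.3 CPM per kb), Irf3 (16.7) and Tmem173 (11.03) led and the sensor was last, at 0.350. In the other group Jak1 (25.3), Ifnar1 (8.15) and Mb21d1 (7.72) led, Irf3 stood at 6.03 below Tmem173 (6.63), and Tyk2 was last at 0.0502. There cell 7 had 310 of the 370 Mb21d1 reads, and cell 4 had 166 of the 211 Tmem173 reads. As a mean over the single cells of that group, Irf3 stood at 9.20 CPM per kb. That was above Tmem173 (3.93) and Mb21d1 (3.50), whose places in the summed order rested on single cells.

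Of the 10 members 7 were measured, meaning 5 CPM or more when all cells were summed and 5 or more reads in 5 or more cells; Mb21d1, Ikbke and Tyk2 fell short. A log2 ratio of at least 1 was found for Irf3 and Mavs, 2 of 7, against 22.9% of the 8390 measured genes. A ratio of at most −1 was found for 0 of 7, against 14.7%. Irf3 and Mavs were also the 2 of 7 with a higher level in summed reads, with equal weight and in each leave-out, against 33.5% of measured genes. Jak1 was the single lower one by that rule, against 20.1%. The median log2 ratio of the 7 was 0.70, and 0.15 over all measured genes; with equal weight the medians were 0.22 and 0.05. A difference of at least 20 points in the share of holding cells was found for none of the 10 members in either direction, against 8.89% and 6.51% of measured genes. A single cell supplied at least 50% of the reads of 1 measured member, Mavs, against 13.3% of measured genes, and of the 3 unmeasured ones. The 7 measured members were held by a median of 15 cells, and all measured genes by 16.

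Genes around the chain went both ways as a whole. Of 112 neighbouring genes listed, 91 were in the table and 62 were measured, 37 higher and 25 lower in summed reads, against 56.0% higher over all measured genes. By the rule of same sign in every leave-out and with equal weight, 23 were higher and 10 lower. All 11 measured genes of STING traffic and control were higher, 8 of them by that rule (background 33.5%), with a median log2 ratio of 0.92 (0.75 to 1.44 over the leave-outs). Of these, Rnf5 (0.04) and Trim32 (0.02) lay near 0. Without the 6 cells of few genes or many mitochondrial reads, 9 of the 11 were higher. With equal weight 9 of 11 were higher, at equal depth 9, without micronucleated cell 10 there were 10, and with scran size factors 8, where 49.3% of all measured genes were higher. Stim1, an ER calcium sensor that retains STING, stood at 16.1 against 1.29 CPM (log2 ratio 2.90, 1.99 without micronucleated cell 7), held by 5 of 21 and 2 of 14 cells. Npc1, a lysosomal cholesterol transporter, stood at 23.6 against 7.15 CPM (1.60), held by 8 of 21 and 1 of 14 cells. Its ratio was 1.22 without micronucleated cell 11, 4.38 when cell 13 without micronuclei was dropped and 0.98 with equal weight. Sec24c, a coat protein that loads STING into vesicles and was named after its values were seen, stood at 159.7 against 51.8 CPM (1.61, and 0.92 with equal weight). The list was fixed with earlier results of these data known.

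Of 8 measured genes of cGAMP transport and breakdown 3 were higher and 5 lower; at equal weight 2 were higher. Enpp1, whose product hydrolyses cGAMP, was the single measured gene of breakdown (−0.45). Its ratio ran from −0.86 to 1.21 over the leave-outs, and cell 1 without micronuclei had 43.5% of its reads. Slc19a1, the folate carrier that also imports cGAMP, stood at 99.7 against 1.46 CPM (log2 ratio 5.35), held by 7 of 21 and 1 of 14 cells. Micronucleated cell 21 had 60.4% of its reads, and the ratio without it was 4.06; it is 1 of the 6 cells of few genes or many mitochondrial reads. Lrrc8b, a subunit of volume-regulated anion channels, was lower at 4.51 against 73.0 CPM (−3.75), and the exporter Abcc1 was lower at 63.0 against 196.7 CPM (−1.63, and −0.88 with equal weight). The main channel subunit gene Lrrc8a was at 637.2 against 409.7 CPM (0.64), which was 0.26 without micronucleated cell 7 and 0.13 with equal weight. Among regulators of cGAS and its DNA ligand 1 was higher and 4 were lower of 5 in summed reads. With equal weight 2 of 5 were higher, and in mean log2 CPM 3 of 5, where all measured genes were higher in 56.0%, 52.8% and 63.9% by the same 3 measures. The ubiquitin ligase gene Trim56, whose product modifies cGAS, stood at −2.26 and was held by 6 of 21 and 4 of 14 cells (28.6% of each group). Its ratio was −1.45 without cell 8 of those lacking micronuclei, which had 43.7% of its reads. Samhd1, a nucleotide hydrolase, stood at −1.37, at −0.82 without cell 5 of the same group and at −0.33 with equal weight.

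Scaffolds of TBK1 were 4 higher and 1 lower of 5, led by Traf6 (log2 ratio 3.73). That ratio was 2.87 without micronucleated cell 11, which had 48% of its reads, 6.27 when cell 5 without micronuclei was dropped and 2.73 with equal weight. In the RNA arm 1 was higher and 3 lower of 4, with the ligase gene Trim25 at 2.49 and Zc3hav1, an antiviral zinc finger protein gene, at −0.71. The latter was −0.06 without cell 7 of those lacking micronuclei, which had 29.9% of its reads, and −0.28 with equal weight. Receptor partners and brakes were 7 higher and 3 lower of 10. Among them Ifngr2, a chain of the interferon-γ receptor, stood at 195.2 against 85.7 CPM (1.18), and Ptpn1, a phosphatase that acts on JAK kinases, at 71.4 against 26 CPM (1.42, and 0.65 with equal weight). Ptpn11, the phosphatase SHP2, stood at −1.29, but at −0.17 with equal weight. In the IKK and NF-κB arm 4 were higher and 5 lower of 9 in summed reads, but 6 of 9 were higher with equal weight and 7 of 9 in mean log2 CPM. Rela stood at 1.20 (0.56 without micronucleated cell 13, 2.57 when cell 1 without micronuclei was dropped and 0.17 with equal weight). The kinase gene Chuk stood at −1.27, and at −0.77 when cell 8 without micronuclei was dropped. Irf2, a gene of the IRF family of factors named after its values were seen, had a log2 ratio of 1.08 in summed reads and −0.86 with equal weight. Interferon ligand genes were not analysed here.

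Of 30 interferon-stimulated genes listed, 20 were in the table used. The others, among them Ifit1, Ifit3, Mx1, Mx2 and Rsad2, were not analysed. The median summed level of the list was 886.7 CPM with micronuclei and 857.8 CPM without. Of the 20 genes, the cells held a median of 4 with micronuclei and 3 without. Micronucleated cell 10, with all 6 steps and the macrophage markers, held 10 of them, and cell 4 without micronuclei held 9. Of the 8 measured genes of this list 4 were higher and 4 lower in summed reads, 3 and 3 by the rule of same sign. Ifit2, an antiviral gene, stood at 3.76 (1.98 without micronucleated cell 14). Ifi35 stood at 1.41 (0.76 without micronucleated cell 11, 3.13 when cell 11 without micronuclei was dropped). Eif2ak2, the gene of the double-stranded RNA sensor PKR, stood lower at 36.7 against 144.2 CPM (−1.95, and −1.54 to −2.63 over the leave-outs). Rnf213, a ubiquitin ligase gene, stood at −2.41, but at −0.44 without cell 8 of those lacking micronuclei, which had 67.9% of its reads. Reads of some targets were gathered in single cells. Of all measured genes, 13.3% had at least 50% of their reads in 1 cell. Of 55 reads of Isg15, a ubiquitin-like interferon target, 44 were in micronucleated cell 13, which had no read of Mb21d1, Tmem173, Jak1 or Tyk2. Of 446 reads of Ifit2, 324 were in micronucleated cell 14, which held Tmem173, Irf3 and Jak1 but had no read of Tbk1 or Ikbke. All 66 reads of the chemokine gene Ccl5 were in micronucleated cell 15, which held Irf3, Mavs and Ifnar2. All 5 reads of Usp18 were in cell 10 without micronuclei, and 47.9% of Irf1 reads were in cell 11 of that group. These genes and cells were named with their values known. At equal depth the number of members with a read and the number of interferon-stimulated genes with a read had a Spearman rho of 0.46 over 31 cells. The latter number had a rho of 0.65 with genes detected, which both counts share.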

How the data were processed

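The authors aligned reads with STAR to GRCm38.p5, counted them per feature with Rsubread and filtered cells with scater (ERCC at most 10%, at least 2000 features and 40000 counts), per the submitters' processing notes; the sources used here give neither their versions nor the strand setting. The deposited values are raw read counts for 19085 genes and 62 spike-ins, which stayed out of totals. All 35 cells were used, no doublet caller was run on them, and 0 columns of other samples were found. Each group was 1 sample, so edgeR and other tests were not run as tests. Reads were summed per group, 11084425 with micronuclei and 11612303 without, and given as CPM; ratios are log2((CPM with + 1)/(CPM without + 1)). Thinning drew 100000 reads per cell without replacement and left out 3 micronucleated cells and 1 other. A measured gene had at least 5 CPM and 5 reads in 5 cells.

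The members and lists were chosen with earlier results of these data known. Named genes were all members and, in each list, up to 2 higher and 2 lower measured genes with the largest smallest ratio of constant sign over summed reads, equal weights and every leave-out, and, for members held by 10 cells, the 2 most similar genes. The alternatives tried were 0.1 or 5 CPM added, TMM or scran factors, the mean of log2 CPM, equal weights, other minimums, thinning, no or a stricter filter (20 CPM, 10 cells), leaving out each cell or the cell with 3 or more macrophage markers and, chosen after seeing the data, the 6 cells below 4000 genes or above 9% of reads from mitochondrial genes. Positions and exonic lengths come from GENCODE M21 (GRCm38), by symbol for 9 members and by RefSeq synonym for Mb21d1. Strand use in counting being unknown, reads of overlapping genes cannot be told apart. The ratio step was tested on simulated Poisson counts, in which cells of a group differed only in depth. That test therefore does not cover the spread between cells seen here. Size factors came from edgeR 4.0.16 (TMM) and scran 1.30.0 in R 4.3.3, intervals from scipy 1.17.1, and the rest from pandas 2.3.3, numpy 2.4.6 and matplotlib 3.10.9 under Python 3.11.15.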

Additional observations from a re-analysis of the deposited data

How the results depend on the processing

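The count of 2 measured members with a log2 ratio of at least 1 was 1 with equal weights, mean log2 CPM, scran factors or the stricter filter (4 members), and 0 after thinning (5 members measured); over the leave-outs it was 2 to 3. The count of lower members was 0, and 1 with no filter (Mb21d1); over the leave-outs it was 0 to 1. The median ratio of 0.70 was 0.22 with equal weights, 0.30 in mean log2 CPM, 0.31 with scran factors, 0.29 with the stricter filter and −0.14 after thinning, and 0.44 to 0.86 over the leave-outs. The difference in median members held per cell (with minus without micronuclei) was −0.5, 1 with 1 read as the minimum and 0.5 with 20 CPM, and −1 to 0 over the leave-outs. That in steps was −1.5, 0.5 with 1 read, 0 after thinning, and −2 to −1 over the leave-outs. Cells holding adaptor, kinase and factor were 0% of both groups after thinning, and over the leave-outs 5 to 10% and 7.69 to 15.4%. Thinning uses fewer reads and cells; the cause of the other changes was not tested. The count of higher members was 3 with 0.1 CPM added, with no filter or without the cell with macrophage markers. Without the 6 cells of few genes or many mitochondrial reads it was 2, the median ratio was 0.59, and both differences in medians per cell were −1. With 5 reads as a minimum, shallow cells cannot show rare transcripts. No paired analysis was possible because the labels give the cells no replicate numbers.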

Other observations

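Genes whose level over the 35 cells was most like that of a member were found by Spearman correlation of CPM for the 5 members held by at least 10 cells; the cells share a protocol and differ in depth, and the values describe them. For Ifnar1 these were Ggps1 (rho 0.76), an enzyme gene of isoprenoid synthesis, and Hnrnph3 (0.68), a splicing factor gene. For Ifnar2 they were Dennd6a (0.70) and Hdac7 (0.69), for Irf3 Sec24c (0.67) and Ostm1 (0.67), for Tbk1 Hist1h2ae (0.66) and Cct6a (0.63), and for Jak1 Ube3a (0.58) and Slit2 (0.56). No measured member was the nearest gene of these 5: the rho of Ifnar1 with Ifnar2 was 0.16 and that of Irf3 with Tbk1 was 0.15. Among the pairs of these 5 with any of the 7 measured members the highest was 0.48, for Tbk1 with Ifnar2.

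Csf1r, a growth factor receptor gene listed as a macrophage marker, had its most reads outside the cell with 12 such markers: 320 reads, 86.3%, were in micronucleated cell 6, at 1452.5 CPM. That cell held 1 macrophage marker and 3 of 10 fibroblast markers, had the fewest genes detected (2391) and held no member of the chain.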
